A study of Mus musculus with 18 samples.

Results

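The genes described here encode the kinases, cyclins and cell cycle regulators that drive an oocyte into metaphase and hold it there: *Mos*, *Ccnb1*, *Ccnb2*, *Ccnb3*, *Cdk1*, *Cdc20*, *Cdc25b*, *Wee2*, *Fbxo43* and *Plk1*. They were chosen by name, as the rows of the deposited TPM table (a level corrected for gene length and library size) whose gene symbol equals one of these 10, and all 10 were found among its 28252 genes. Read counts of the same Ensembl identifiers were taken from the deposited count table of 53715 genes.

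A fully grown oocyte rests in prophase of the first meiotic division with CDK1 kept inactive, because WEE2 (also known as WEE1B) phosphorylates it and little cyclin B is allowed to accumulate. After the LH surge, CDC25B removes that phosphate and so activates maturation promoting factor, the complex of CDK1 and cyclin B. PLK1 reinforces its activation, and the oocyte enters metaphase. The oocyte then halts at metaphase of the second division (MII): MOS keeps the MAP kinase cascade active, and FBXO43 (also called EMI2) blocks the anaphase-promoting complex, whose activator CDC20 would otherwise lead to the destruction of cyclin B. Maturing oocytes make little new RNA, so a stored mRNA can be translated after its poly(A) tail has been lengthened.

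All mice were C57Bl/6j x CBA/J animals, and 3 libraries were made for each of 6 groups. Laser capture was used to cut the oocytes of primordial and primary follicles from fixed, paraffin-embedded ovaries. The *in vivo* ovaries came from 14-day-old mice and were not cultured. The *in vitro* ovaries were taken at 7 days of age and cultured for 7 days with FSH and serum. *In vivo* MII oocytes came from 9 adult mice superovulated with human menopausal gonadotropin and hCG. *In vitro* MII oocytes came from ovaries of 7-day-old mice cultured for 7 days in the same way. Their isolated follicles were grown for 12 further days in alginate with FSH before hCG was given. Each MII library held 10 oocytes and was prepared with Smart-seq II, whereas the laser capture RNA was pooled by stage from several caps, amplified with the Ovation PICO system and made into libraries by exome capture (TruSeq RNA Access). The step from early follicle to MII oocyte thus coincides with a change of protocol, the effects of the 2 cannot be told apart, and MII and laser capture libraries were not tested against each other. No label says which animals a replicate came from, so p-values measure the spread between these libraries.

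The laser capture libraries held 15149564 to 29205503 counted reads and the MII libraries 7334817 to 9978830. The 14 oocyte marker genes summed to 365 to 1970 TPM in the laser capture libraries and to 6729 to 15998 TPM in the MII libraries, so both carried oocyte RNA. *Gdf9* alone was at 4976 to 14549 TPM in the MII libraries. The medians of *Ddx4* (219 and 126 TPM), *Lhx8*, *Figla* and *Sohlh1* were lower in MII than in laser capture libraries, and those of the other oocyte markers were higher. The 10 stroma, theca and muscle markers summed to 453 to 29972 TPM in the laser capture libraries, highest in library 2 of the *in vivo* primary group, and to at most 4.11 TPM in the MII libraries, with 5 to 9 of the 10 at 0 there. The 15 granulosa and cumulus cell markers of the TPM table summed to 37.3 to 2579 TPM after laser capture and to 32.6 to 77.9 TPM in MII oocytes. In MII oocytes *Cyp19a1* alone was at 17.5 to 64.7 TPM, *Nr5a2* at 3.91 to 12.1 TPM and *Kitl* at 1.53 to 7.95 TPM. *Fshr*, at 0 in all laser capture libraries, reached 6.42 TPM in MII oocytes. *Foxl2*, *Fst* and *Tnfaip6* were at 0 there, and the other markers of this list reached at most 2.70 TPM (*Inha*). The 8 endothelial and blood cell markers reached 7504 TPM in library 1 of the *in vivo* primary group, nearly all of it *Hba-a1* (7503 TPM). They reached 105 TPM at most in MII oocytes, where *Pecam1* alone was at 35.2 to 95.1 TPM. The part of these other cells in the laser capture values below was not tested, and in such pooled samples fewer cells of a type and less RNA per cell cannot be told apart.

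Promoter sequences are shown first, because several of the 10 genes shared a pair of sequence motifs. The choice by name used no sequence, but the CHR described below is known from genes of the G2 and M phases. These genes were chosen for their part in metaphase, so a high share is not independent of the choice. RefSeq promoter windows of mouse build GRCm38.p6, running from 250 bases before to 50 bases after the transcription start, were matched by symbol for 8 of the 10 genes. *Mos* and *Fbxo43* had no entry. The windows were searched on both strands for the CCAAT box (CCAAT, or ATTGG on the other strand), the binding site of NF-Y, and for the cell cycle genes homology region or CHR (TTTGAA or TTCGAA, with TTCAAA on the other strand), through which the MuvB complexes act on genes of the G2 and M phases. *Ccnb2* and *Cdk1* are printed because each held both motifs more than once, and *Wee2*, the oocyte form of the CDK1 inhibitor, because it held no CHR match. Capitals mark the matches, and each line reads 5′ to 3′ on the strand of the gene.
Ccnb2, chr9:70421505-70421804, minus strand: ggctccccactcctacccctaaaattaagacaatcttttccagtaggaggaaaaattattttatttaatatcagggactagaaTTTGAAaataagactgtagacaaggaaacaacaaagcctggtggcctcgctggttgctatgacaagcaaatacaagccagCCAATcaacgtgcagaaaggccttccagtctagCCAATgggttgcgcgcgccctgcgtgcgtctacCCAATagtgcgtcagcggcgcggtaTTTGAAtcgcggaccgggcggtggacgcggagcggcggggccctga
Cdk1, chr10:69352863-69353162, minus strand: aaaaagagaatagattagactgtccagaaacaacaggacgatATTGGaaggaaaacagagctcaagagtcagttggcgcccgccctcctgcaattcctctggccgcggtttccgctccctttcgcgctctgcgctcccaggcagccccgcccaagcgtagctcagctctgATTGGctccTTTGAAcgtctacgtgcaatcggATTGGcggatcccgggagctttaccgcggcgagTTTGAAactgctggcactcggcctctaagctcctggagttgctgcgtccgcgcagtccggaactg
Wee2, chr6:40442613-40442912, plus strand: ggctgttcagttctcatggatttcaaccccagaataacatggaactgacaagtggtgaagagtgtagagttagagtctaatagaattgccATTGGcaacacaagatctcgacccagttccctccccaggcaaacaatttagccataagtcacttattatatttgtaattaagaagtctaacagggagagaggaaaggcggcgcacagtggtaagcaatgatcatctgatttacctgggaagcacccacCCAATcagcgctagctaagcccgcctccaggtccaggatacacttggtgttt

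A CCAAT match lay in the windows of 7 of the 8 genes, against 37.4% of all 32851 promoters in the same table, and a CHR match in 5 of 8, against 19.2%. Both motifs together were found in 5 of 8 (*Ccnb2*, *Cdk1*, *Cdc20*, *Cdc25b* and *Plk1*), against 7.52% of all promoters. *Ccnb2* held CCAAT matches whose first base lay 87, 54 and 21 bases before the start, with CHR matches 167 bases before the start and at base 5 after it. *Cdk1* held 3 CCAAT matches, all on the opposite strand, at 208, 80 and 48 bases before the start, and CHR matches 71 and 15 bases before it. *Ccnb1* and *Wee2* held 2 CCAAT matches each and no match to the CHR letters searched, and the window of *Ccnb3* held neither. Other forms of the CHR were not searched. These matches are letters in a window and were not tested as binding sites.

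The ends of the 3′ UTRs were examined as well, since the cytoplasmic polyadenylation element, read by CPEB, sits close to the polyadenylation signal in mRNAs that are translated during maturation. The last 100 bases of the 3′ UTR of 1 principal transcript per gene (GENCODE M21, GRCm38) were searched on the transcript strand for TTTTAT or TTTTAAT and for the signals AATAAA or ATTAAA. A signal was present in all 10 genes, 9 of which have a 3′ UTR of at least 100 bases, against 78.4% of the 19620 protein-coding genes with a 3′ UTR of at least 100 bases. Of the 9 of the 10 genes whose 3′ UTR is that long, 2 held the element, a share near the 17.9% found over those genes, and *Cdc20* held it in a shorter UTR. It was found once in *Ccnb3* and with 2 matches each in *Cdc20*, whose whole 3′ UTR is 62 bases long and whose matches share 1 base, and in *Wee2*, where 1 match lies after the signal. The stretches of *Cdc20* and *Wee2* that hold an element and the signal within 30 bases are printed, with the signal and the nearest element before it in capitals.
Cdc20, chr4:118432911-118432940, minus strand: ttttaTTTTATtttttctAATAAAgttcgt
Wee2, chr6:40466766-40466795, plus strand: taTTTTAATccagatcattgtaAATAAAga
In *Cdc20* the element began 35 bases and the signal 22 bases before the annotated end, and in *Wee2* 46 and 26 bases. The search covered the annotated end alone, so elements beside an earlier end or further upstream were not counted.

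The genes lie on 9 chromosomes (GRCm38). *Mos* is at chr4:3870657-3872105 on the minus strand and *Cdc20* on the same chromosome and strand at chr4:118432901-118437352. *Ccnb1* is at chr13:100778650-100786570, *Ccnb2* at chr9:70407692-70421547, *Ccnb3* at chrX:6979652-7041619 and *Cdk1* at chr10:69335146-69352938, all on the minus strand. *Fbxo43* is on the minus strand at chr15:36150060-36164884. On the plus strand, *Cdc25b* is at chr2:131186949-131198497, *Wee2* at chr6:40439088-40466813 and *Plk1* at chr7:122159439-122169873. *Cdc20* overlaps *Elovl1*, *Cdc25b* overlaps *Spef1* and *Plk1* overlaps *Gm44985*, each on the opposite strand, and *Ccnb1* and *Ccnb2* have annotated pseudogenes (*Ccnb1-ps* and *Ccnb2-ps*). Since the use of strand and of multiply mapped reads in the counting is not given in the sources used here, reads of these 5 genes may include reads of those neighbours or copies.

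In all 6 MII libraries, 7 of the 10 maturation genes lay above every laser capture library. Of the 20499 genes of the TPM table with at least 10 reads in total, 20.2% showed that pattern and 1.72% the reverse. The 7 were *Mos*, *Ccnb1*, *Ccnb2*, *Ccnb3*, *Cdc20*, *Wee2* and *Fbxo43*. The other 3, *Cdk1*, *Cdc25b* and *Plk1*, overlapped between stages. All 3 of their promoters were among the 5 with both motifs, but so were those of *Ccnb2* and *Cdc20*, which did not overlap. *Mos* and *Fbxo43* had no promoter to search, and a link between motifs and levels was not tested. Because stage and library preparation coincide, these are levels side by side and not a test.

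**Figure D1:**
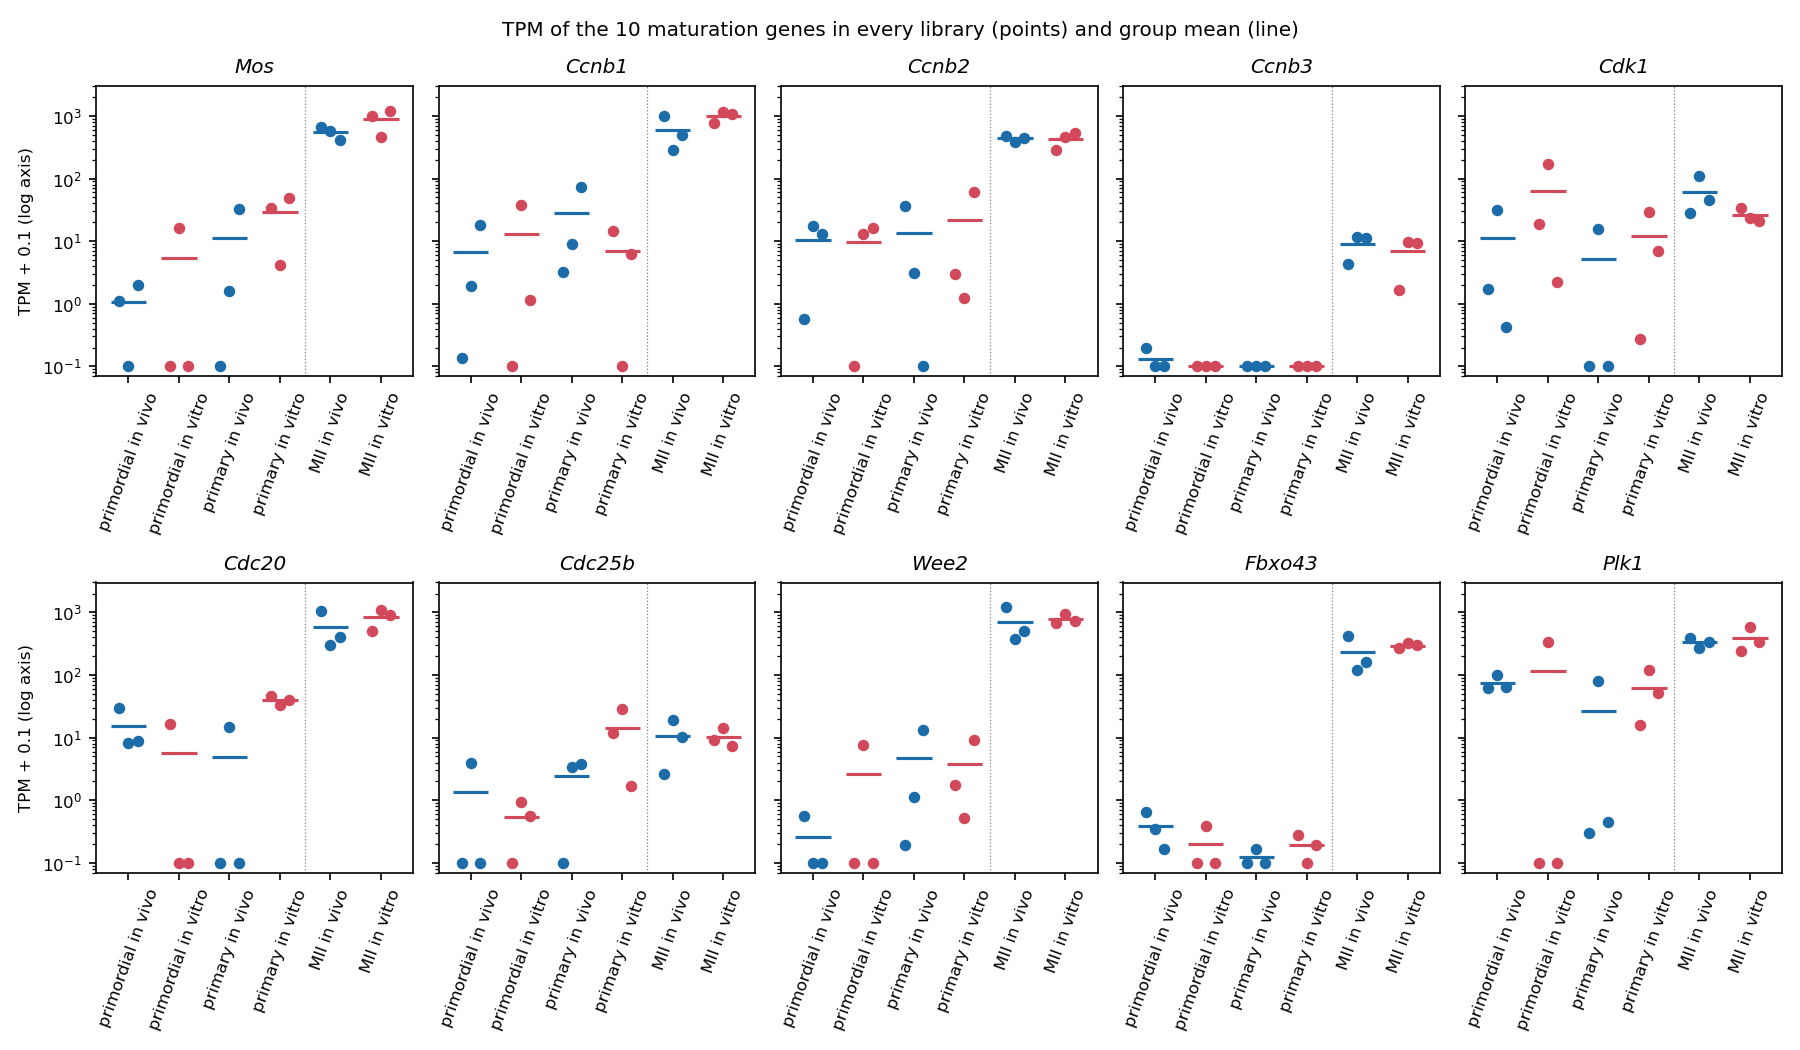
Each panel plots 1 gene: TPM + 0.1 on a log axis for the 3 libraries (points) of each of 6 groups, with the group mean as a line, *in vivo* in blue and *in vitro* in red. To the right of the dotted line stand the MII libraries, where 7 of the 10 genes sit above all 12 laser capture libraries, while *Cdk1*, *Cdc25b* and *Plk1* overlap.

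Within MII oocytes the 10 genes fell into 3 tiers of TPM that did not overlap. The upper tier held the mRNAs of *Ccnb1* (789 ± 341 TPM, mean ± SD, n = 6), *Wee2* (736 ± 297), *Mos* (714 ± 315), *Cdc20* (707 ± 342), *Ccnb2* (434 ± 86.6), *Plk1* (360 ± 124) and *Fbxo43* (263 ± 107). Each neighbour in that order overlapped the next in range. Within libraries, *Fbxo43* was below *Ccnb1*, *Wee2*, *Mos*, *Cdc20* and *Ccnb2* in all 6, and *Plk1* was below *Ccnb1*, *Wee2* and *Cdc20* in all 6, while *Ccnb1*, *Wee2*, *Mos* and *Cdc20* changed places between libraries. *Cdk1* stood alone in the middle, at 20.9 to 110 TPM, below the lowest *Fbxo43* value of 122 TPM. *Cdc25b* (2.49 to 19.1 TPM) and *Ccnb3* (1.56 to 11.7 TPM) made up the lowest tier and overlapped each other. The mRNA of the kinase itself was thus listed at a lower TPM than those of *Ccnb1* and *Ccnb2* in every MII library. Poly(A) tail length was not measured, and its part in these and the later MII values was not tested.

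*Fbxo43*, the gene of the anaphase-promoting complex inhibitor, separated the stages most widely. At most 15 reads were counted in any laser capture library (0 to 0.541 TPM), 5 of the 12 libraries had none, and 4 had more than 3 reads, the limit that a count of 0 allows. The MII libraries held 1470 to 5914 *Fbxo43* reads, and their lowest TPM was 226 times the highest laser capture TPM. *Ccnb3*, a cyclin B known from the first meiotic division, was nearly absent after laser capture as well, with 3 reads in library 1 of the *in vivo* primordial group and 0 in the other 11, and the MII libraries held 30 to 170 reads.

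*Wee2* and *Mos*, both known as oocyte genes, were already counted in some early follicle libraries. *Wee2* had more than 3 reads in 7 of 12 laser capture libraries, up to 230 reads (9.11 TPM) in library 3 of the *in vitro* primary group and 13.0 TPM in library 3 of the *in vivo* primary group, and its lowest MII level was 29.2 times the highest of these. *Mos* had more than 3 reads in 8 of 12 libraries and none in 4, and its lowest MII level was 8.53 times the highest laser capture level of 48.1 TPM. For *Cdc20*, *Ccnb2* and *Ccnb1* the same ratio was 6.57, 4.80 and 3.98.

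*Plk1* and *Cdk1*, kinases that every dividing cell uses, had their highest laser capture values in 1 library, library 2 of the *in vitro* primordial group. It held 6401 *Plk1* reads (342 TPM) and 7057 *Cdk1* reads (168 TPM), and the other 2 libraries of that group had 0 *Plk1* reads. Library 2 also held all the *Mos* and *Wee2* reads of its group. Without this library, 8 of the 10 genes instead of 7 lay above all laser capture libraries in MII oocytes. *Cdc25b*, the gene of the phosphatase that starts maturation, reached its highest TPM of the series outside the MII stage, at 29.0 TPM in library 2 of the *in vitro* primary group, against 2.49 to 19.1 TPM in MII oocytes. The 18 dividing cell genes summed to 178 to 820 TPM after laser capture (median 483) and to 823 to 2039 TPM in MII oocytes. In library 2 of the *in vitro* primordial group they summed to 240 TPM. The oocyte markers summed to 1970 TPM there, the highest of the laser capture libraries. The part of dividing cells near the oocyte in these values was not tested.

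Likeness over all 18 libraries was described by Pearson's r of log2(TPM + 1) with each of 14159 genes of mean TPM of at least 1. The 18 points share 2 library preparations, so the values mostly reflect the step between them, and they are given with no test. The gene most like *Mos* was *Wee2* (r = 0.96), followed by *Gm45663* (0.96) and *E330021D16Rik* (0.96). *Wee2* was in turn most like *AU022751*, *Trim61* and *Oas1e* (each 0.99). *Fbxo43* came closest to *Gm26903*, *Bmp5* and *Gm20617*, at 0.9990, 0.9989 and 0.9987.

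The central comparison asked whether MII oocytes grown *in vitro* carried the same maturation mRNAs as ovulated ones. None of the 10 genes passed both thresholds (adjusted p under 0.05 over all genes and a fold of at least 2) in edgeR's quasi-likelihood test, against 60 of all 17144 genes tested (0.35%). At an unadjusted p under 0.05 the count was 1 of the 10 (*Cdk1*) and 1743 of all genes, and DESeq2 called 0 of the 10 and 351 of all genes. No gene of the 10 had TPM values that did not overlap between the groups, whereas 14.8% of all genes that reached 10 reads in total did. All 10 had intervals that still allowed a fold of more than 1.5 in some direction, so a p that missed the threshold does not show that the levels were the same.

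*Cdk1* had the lowest p of the 10. Its TPM was 28.1, 110 and 45.7 in *in vivo* libraries 1, 2 and 3 and 33.6, 23.6 and 20.9 in *in vitro* libraries 1, 2 and 3. Library 2 of the *in vivo* group was the highest, and *in vitro* library 1 lay above *in vivo* library 1, so that the groups overlapped. The log2 fold change was -1.07 (SE 0.48, 95% interval -2.10 to -0.05; edgeR adjusted p = 0.472). Without *in vivo* library 2, the log2 fold change was -0.39.

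*Mos*, the MAP kinase kinase kinase of the arrest, had the largest positive estimate. Its values were 665, 566 and 410 TPM *in vivo* and 986, 455 and 1202 TPM *in vitro*. The highest 2 libraries were *in vitro* and the lowest was *in vivo*, with *in vitro* library 2 among the *in vivo* values. The log2 fold change was 0.77 (SE 0.43, 95% interval -0.15 to 1.70; edgeR adjusted p = 0.512).

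Among the cyclins, *Ccnb1* was listed at 985, 290 and 489 TPM *in vivo* and at 764, 1146 and 1063 TPM *in vitro*. All *in vitro* libraries exceeded *in vivo* libraries 2 and 3, and *in vivo* library 1 lay among them, which gave a log2 fold change of 0.73 (SE 0.45, 95% interval -0.24 to 1.69; edgeR adjusted p = 0.557). *Ccnb2* was the steadiest of the 10, with 479, 387 and 443 TPM *in vivo* and 290, 466 and 540 TPM *in vitro*. Its log2 fold change was -0.01 (SE 0.32, 95% interval -0.69 to 0.68), an interval that excludes a doubling or halving. *Ccnb3* was low in both groups, with 4.19, 11.7 and 11.0 TPM *in vivo* and 1.56, 9.64 and 9.20 TPM *in vitro* (log2 fold change -0.42, SE 0.62).

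*Ccnb1* made up 67.1%, 42.1% and 51.9% of the summed TPM of the B cyclins in *in vivo* libraries 1, 2 and 3 and 72.4%, 70.7% and 65.9% in the *in vitro* libraries. The means were 53.7% ± 12.6 (SD, n = 3) and 69.7% ± 3.36 (SD, n = 3). The *in vitro* libraries lay close together and the *in vivo* ones were spread, with library 1 inside the *in vitro* range. The difference of 16.0 percentage points gave a two-sided exact permutation p of 0.2, where 0.1 is the smallest that 3 against 3 libraries can give, and it became 22.7 points without *in vivo* library 1 and 10.2 without library 2.

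The opposing regulators of CDK1 gave no direction that held across libraries. *Wee2* was at 1202, 380 and 501 TPM *in vivo* and 667, 928 and 739 TPM *in vitro* (log2 fold change 0.14, SE 0.45, 95% interval -0.82 to 1.11). *Cdc25b* was at 2.49, 19.1 and 10.1 TPM *in vivo* and 9.08, 14.2 and 7.24 TPM *in vitro* (log2 fold change 0.05, SE 0.62). Both genes had their extreme values in the *in vivo* group, *Wee2* its highest and *Cdc25b* its lowest in library 1. The ratio of *Wee2* to *Cdc25b* TPM was therefore 483 in *in vivo* library 1 but 19.9 and 49.4 in the other 2, and 73.5, 65.5 and 102 *in vitro*. The mean log2 ratio differed by 0.02 (two-sided exact permutation p = 1), with log2 SDs of 2.37 *in vivo* and 0.33 *in vitro*, and leaving out 1 library at a time moved the difference between -0.97 and 1.33.

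The genes around the anaphase-promoting complex and *Plk1* showed the same overlap. *Cdc20* was at 1034, 299 and 409 TPM *in vivo* and 508, 1087 and 906 TPM *in vitro* (log2 fold change 0.45, SE 0.47). *Fbxo43* was at 412, 122 and 158 TPM *in vivo* and 269, 321 and 297 TPM *in vitro* (log2 fold change 0.34, SE 0.46). For both genes *in vivo* library 1 was more than 2.5 times the other 2, and the *in vitro* libraries lay between it and them, apart from *in vitro* library 2 for *Cdc20*, which was above it. *Plk1* was at 394, 268 and 338 TPM *in vivo* and 238, 587 and 336 TPM *in vitro*, with both extremes in the *in vitro* group (log2 fold change 0.19, SE 0.35).

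**Figure D2:**
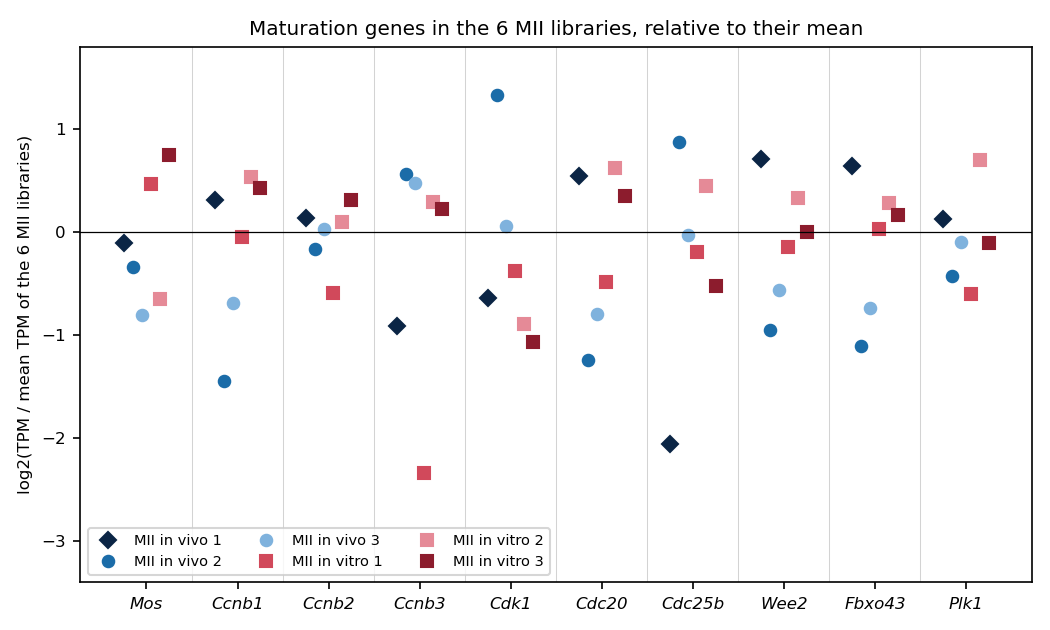
The log2 ratio of each MII library's TPM to the mean of the 6 MII libraries is plotted for each of the 10 genes, with *in vivo* libraries in blue (library 1 as a dark diamond) and *in vitro* libraries as red squares. The diamond lies far above *in vivo* libraries 2 and 3 for *Ccnb1*, *Cdc20*, *Wee2* and *Fbxo43* and below them for *Ccnb3*, *Cdk1* and *Cdc25b*.

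Whether any of the 10 genes was called in MII oocytes depended on *in vivo* library 1. Over all genes with at least 10 reads in total, its Spearman correlation with the other MII libraries was 0.864 to 0.903. The same range for *in vivo* library 2 was 0.843 to 0.903, so library 1 was not the least alike by this measure. By group, library 1 correlated at 0.864 and 0.897 with *in vivo* libraries 2 and 3. With *in vitro* libraries 1, 2 and 3 it correlated at 0.875, 0.903 and 0.892, so its closest match was *in vitro* library 2. *In vivo* libraries 2 and 3 were closest to each other (0.903). Library 1 was the highest of the 3 *in vivo* libraries for 7 of the 10 genes (29.1% of all genes) and the lowest for the other 3 (39.4% of all genes). It was at least 1.5 times both others for *Ccnb1* (2.01 times the higher of them), *Cdc20* (2.53), *Wee2* (2.40) and *Fbxo43* (2.61), as it was for 16.5% of all genes. It was at least 1.5-fold below both others for *Ccnb3*, *Cdk1* and *Cdc25b*, as it was for 26.3% of all genes. The summed TPM of the 10 genes was 5205 in this library, 2453 and 2815 in *in vivo* libraries 2 and 3, and 3766, 5038 and 5120 *in vitro*. Mitochondrial genes took 0.907% of its reads, against 5.11% and 3.20% in *in vivo* libraries 2 and 3 and 8.15%, 1.73% and 2.06% *in vitro*, and the part of this in the result was not tested.

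When *in vivo* library 1 was left out, an alternative that compares 2 with 3 libraries, 3 of the 10 genes were called, all higher *in vitro*, against 378 of 16779 genes (2.25%; 281 higher and 97 lower). *Ccnb1* had a log2 fold change of 1.48 (SE 0.28, 95% interval 0.87 to 2.09; edgeR adjusted p = 0.0255). *Cdc20* was at 1.33 (SE 0.28; edgeR adjusted p = 0.0417) and *Fbxo43* at 1.23 (SE 0.26; edgeR adjusted p = 0.0431). *Wee2* had a log2 fold change of 0.96 (SE 0.25; edgeR adjusted p = 0.0767), *Mos* of 1.05 (0.239) and *Cdk1* of -1.38 (0.135). In this subset the genes called were a cyclin, the activator and the inhibitor of the same ubiquitin ligase. Library 1 held the highest *in vivo* value of all 3, so leaving it out was bound to raise their fold changes. The p-values of this subset are therefore no independent support. Leaving out any of the other 5 MII libraries called none of the 10 and between 11 and 50 of all genes, and without *in vivo* library 2 the log2 fold changes of *Ccnb1*, *Cdc20* and *Fbxo43* were 0.37, 0.11 and 0.0061. The counts were 50 without *in vivo* library 2, 19 without library 3, and 12, 14 and 11 without *in vitro* libraries 1, 2 and 3.

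**Figure D3:**
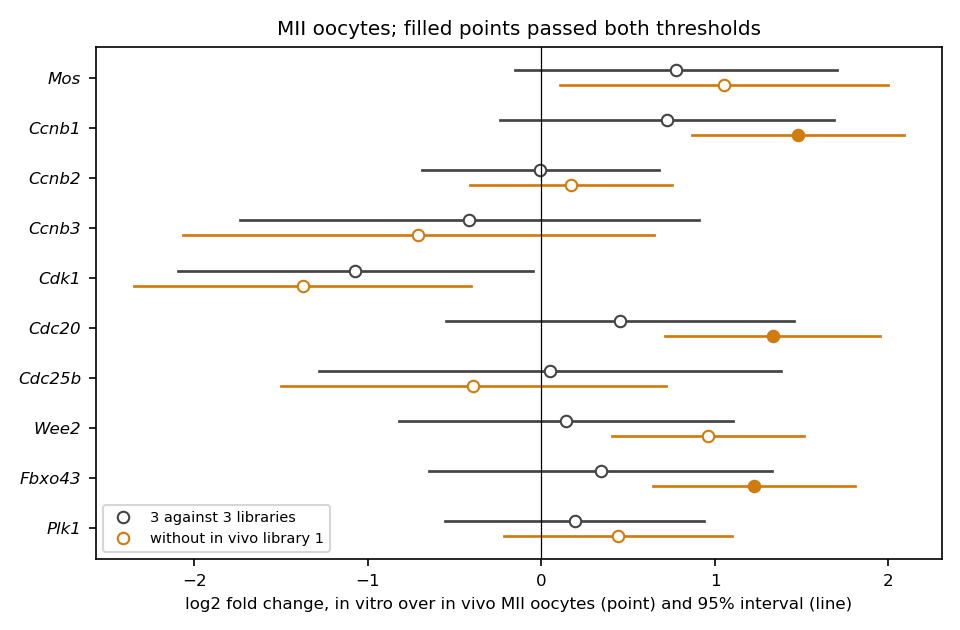
Points give the log2 fold change of each gene, *in vitro* over *in vivo* MII oocytes, and lines its 95% interval, in grey for all 6 libraries and in orange without *in vivo* library 1. Filled points passed both thresholds: none with all libraries, and *Ccnb1*, *Cdc20* and *Fbxo43*, at 1.48, 1.33 and 1.23, without that library.

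The surrounding pathway genes were read from 4 lists. None was called in MII oocytes with all libraries: 0 of 14 activators, inhibitors and partners of CDK1, 0 of 7 genes of the MAP kinase arm, 0 of 19 genes of the anaphase-promoting complex and 0 of 14 tested genes (of 16) of the Greatwall and PP2A arm and calcium-triggered exit. At an unadjusted p under 0.05 (edgeR) the counts were 1, 0, 0 and 3, against 1743 of all 17144 genes (10.2%). The median log2 fold changes of these lists were 0.16, 0.08, -0.03 and 0.11, against 0.04 for all genes and 0.17 for the 10 maturation genes. Of the 18 dividing cell genes 0 were called, with a median of 0.16.

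The lowest p among these lists belonged to *Ppp3r1*, the regulatory subunit of calcineurin, with 189, 174 and 212 TPM *in vivo* and 299, 507 and 384 TPM *in vitro*. Every *in vitro* library was above every *in vivo* library, at a log2 fold change of 1.07 (SE 0.31; edgeR adjusted p = 0.240). *Arpp19*, a substrate of the Greatwall kinase that restrains PP2A, was at 47.7, 12.4 and 24.0 TPM *in vivo* and 86.9, 88.0 and 55.9 TPM *in vitro* (log2 fold change 1.48, SE 0.50; edgeR adjusted p = 0.360). *Mastl*, the Greatwall kinase gene, was at 123, 39.4 and 59.6 TPM *in vivo* and 120, 249 and 179 TPM *in vitro* (log2 fold change 1.25, SE 0.44; edgeR adjusted p = 0.389). Without *in vivo* library 1 these 3 genes were called, at log2 fold changes of 1.16, 2.26 and 1.98 (edgeR adjusted p = 0.0450, 0.0234 and 0.0109). They were the pathway genes called in that subset, while the other 3 lists and the dividing cell genes still had 0 called. Library 1 held the highest *in vivo* value of *Arpp19* and *Mastl* as well.

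In the list of CDK1 partners the lowest p values were those of *Ccne2*, a cyclin E, at 57.6, 45.0 and 38.6 TPM *in vivo* and 49.2, 121 and 122 TPM *in vitro* (log2 fold change 1.01, SE 0.37; edgeR adjusted p = 0.403), and of *Ccna1*, listed at 0 in all *in vivo* libraries and at 0, 1.24 and 1.00 TPM *in vitro*. *Ube2s*, an E2 enzyme of the anaphase-promoting complex, was at 17.1, 106 and 67.2 TPM *in vivo* and 23.1, 21.4 and 45.1 TPM *in vitro* (log2 fold change -0.97, SE 0.51). *Anapc15*, a subunit of that complex, was at 21.6, 49.6 and 47.1 TPM *in vivo* and 17.8, 29.5 and 22.6 TPM *in vitro* (log2 fold change -0.69, SE 0.36). For these subunit and E2 genes *in vivo* library 1 was again closer to the *in vitro* libraries than to *in vivo* libraries 2 and 3. In the MAP kinase arm, *Rps6ka2* was above 0 in *in vitro* library 3 alone (0.567 TPM), and *Rps6ka3*, a p90 ribosomal S6 kinase, was at 5.95, 5.12 and 6.11 TPM *in vivo* and 2.62, 5.83 and 2.51 TPM *in vitro* (log2 fold change -0.65, SE 0.50). *Pbk* and *Kif11* had the lowest p of the dividing cell genes, with log2 fold changes of 1.13 (SE 0.43; edgeR adjusted p = 0.417) and 1.10 (SE 0.46; edgeR adjusted p = 0.454).

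Markers of other cells were compared in the same fit. Of the 13 oocyte markers tested, 1 was called, *Ddx4*, a germ cell RNA helicase gene, at 34.8, 13.4 and 23.9 TPM *in vivo* and 217, 368 and 271 TPM *in vitro* (log2 fold change 3.55, SE 0.43; edgeR adjusted p = 0.00206). None of the 8 granulosa and cumulus, 5 stroma, theca and muscle or 3 endothelial and blood markers tested was called. An unadjusted p under 0.05 (edgeR) was found for 2, 1 and 0 of them, against 10.2% of all genes.

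In oocytes of primordial and primary follicles the question was whether culture of the ovary, or the step from primordial to primary follicle, went along with a change in these mRNAs. The reads were too unevenly spread between replicates for that: of the 9 genes tested none was called in any of 5 comparisons. The share of all 15317 genes called was 0.0326% (5 genes) for primordial oocytes *in vitro* against *in vivo*, 0% (0 genes) for primary oocytes, 0.104% (16 genes) for the difference between these 2 effects, 0.0522% (8 genes) for primary against primordial oocytes *in vivo* and 0% (0 genes) for the same *in vitro*. At an unadjusted p under 0.05 the counts were 0 of the 9 in each comparison and 1799, 1479, 1765, 1713 and 1673 of all genes, and DESeq2 called 0 of the 9 and 774, 227, 550, 532 and 413 of all genes. The adjusted p of the 9 genes ran from 0.609 to 1 over the 5 comparisons (edgeR), and the standard errors of their log2 fold changes from 2.79 to 4.66, so that each 95% interval spanned more than 10 log2 units. *Ccnb3* had too few reads to be tested. None of the pathway, dividing cell or cell marker lists had a gene called in these 5 comparisons.

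**Figure D4:**
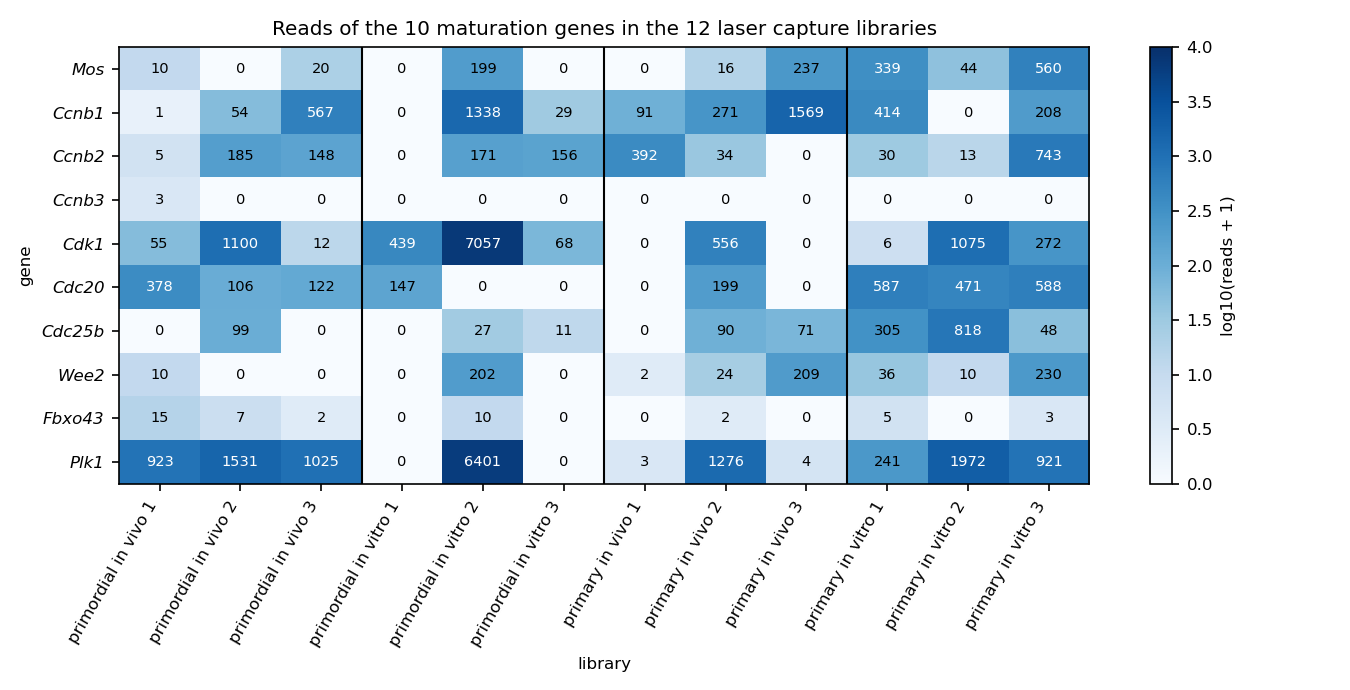
Each cell gives the number of reads of 1 gene (row) in 1 laser capture library (column), coloured by log10(reads + 1), with black lines between the 4 groups. Within a group the same gene often has 0 reads in 1 library and many in another, as for *Plk1* in *in vitro* primordial oocytes (0, 6401 and 0), whereas *Cdc20* in *in vitro* primary oocytes is even (587, 471 and 588).

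*Cdc20* was even between the libraries of *in vitro* primary oocytes. Its values were 45.5, 33.3 and 39.2 TPM (39.3 ± 6.07, SD, n = 3), against 0, 14.6 and 0 TPM in *in vivo* primary oocytes and 16.7, 0 and 0 TPM in *in vitro* primordial oocytes. The groups did not overlap in either comparison. For primary oocytes *in vitro* against *in vivo* this was 1 of the 9 genes, and 11.5% of all genes had no overlap. The log2 fold change was 2.85 (SE 3.39, 95% interval -3.80 to 9.50; edgeR adjusted p = 0.924) and, against *in vitro* primordial oocytes, 2.45 (SE 3.34, 95% interval -4.10 to 8.99; edgeR adjusted p = 0.935). These values rested on 1 library each: without *in vivo* primary library 2 the first was 11.79, and without *in vitro* primordial library 1 the second was 11.85, with *Cdc20* at 0 in both libraries left, where a fitted fold depends on the prior count. With limma on log2(TPM + 0.1) they were 6.21 and 6.15.

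*Cdc25b* was the other gene without overlap between *in vitro* primary and *in vitro* primordial oocytes, where 2 of the 9 genes stood against 13.3% of all genes. It was at 11.8, 29.0 and 1.60 TPM in the primary and 0, 0.850 and 0.458 TPM in the primordial libraries (log2 fold change 4.91, SE 3.74, 95% interval -2.42 to 12.24; edgeR adjusted p = 0.657; 2.85 with limma on log2(TPM + 1)). None of the 9 separated the groups without overlap in primordial oocytes *in vitro* against *in vivo* (7.74% of all genes) or between stages *in vivo* (7.34%).

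*Plk1* was the most abundant of the 10 in *in vivo* primordial oocytes and also the most even there, with 61.1, 98.7 and 63.2 TPM (74.3 ± 21.1, SD, n = 3). In *in vivo* primary oocytes it was at 0.196, 79.5 and 0.355 TPM, from 3, 1276 and 4 reads. Library 2 there also had the highest summed stroma, theca and muscle markers (29972 TPM), mostly *Acta2* (18521 TPM) and *Col1a1* (9734 TPM). Its granulosa and cumulus markers summed to 938 TPM, against 352 and 491 TPM in libraries 1 and 3. In library 2 of the *in vitro* primordial group, where *Plk1* was at 342 TPM, the 2 sums were 461 and 650 TPM. They were 3525 and 2171 TPM in library 3 of the same group, where *Plk1* was at 0. The part of such cells in the *Plk1* values was not tested. In *in vitro* primary oocytes *Plk1* was at 15.9, 119 and 52.1 TPM. Both primary groups overlapped each other and the primordial groups.

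*Ccnb1* was counted in at least 2 libraries of each laser capture group, led by library 3 *in vivo*, library 2 among the *in vitro* primordial and library 1 among the *in vitro* primary oocytes. It was at 0.0345, 1.82 and 18.2 TPM in *in vivo* primordial oocytes and 3.10, 8.80 and 72.7 TPM in *in vivo* primary oocytes. In the *in vitro* groups it was at 0, 37.3 and 1.07 TPM (primordial) and 14.2, 0 and 6.14 TPM (primary). The groups overlapped in every comparison.

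*Ccnb2* had a similar spread, with 0.475, 17.1 and 13.1 TPM in *in vivo* primordial, 36.8, 3.04 and 0 TPM in *in vivo* primary, 0, 13.1 and 15.8 TPM in *in vitro* primordial and 2.84, 1.12 and 60.4 TPM in *in vitro* primary oocytes. *Cdk1* was at 1.62, 31.6 and 0.330 TPM in *in vivo* primordial and 0, 15.4 and 0 TPM in *in vivo* primary oocytes, and at 18.9, 168 and 2.14 TPM and 0.176, 28.8 and 6.86 TPM in the *in vitro* primordial and primary groups. In all 4 groups library 2 was the highest for *Cdk1*.

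*Mos* and *Wee2* were each counted in a part of the early follicle libraries. *Mos* was at 1.00, 0 and 1.87 TPM in *in vivo* primordial and 0, 1.51 and 31.9 TPM in *in vivo* primary oocytes, and at 0, 16.1 and 0 TPM and 33.9, 4.02 and 48.1 TPM in the *in vitro* primordial and primary groups. *Wee2* was at 0.463, 0 and 0 TPM, 0.0916, 1.05 and 13.0 TPM, 0, 7.55 and 0 TPM and 1.66, 0.421 and 9.11 TPM in the same 4 groups. Both genes were highest in library 3 of each primary group and in library 2 of the *in vitro* primordial group, whereas library 1 of the *in vitro* primary group held *Mos* and little *Wee2*, and the *in vivo* primordial group had its highest *Mos* value in library 3 and its *Wee2* reads in library 1. Between 2 and 9 of the 10 genes were above 3 reads in a laser capture library, against all 10 in each MII library.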

How the data were processed

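RNA-seq was carried out on 18 mouse oocyte libraries, and all were assigned to a group by their labels. Per the submitters' processing notes and the methods, the authors trimmed reads with Trim Galore 0.4.1, aligned these against mm10 by TopHat2 and used featureCounts for counting, with annotation from Ensembl in the methods and from RefSeq in the results text. The authors deposited raw read counts per gene and a table of TPM, which per the deposited columns sum to the same total in each library and were proportional to the counts for 100% of genes (tolerance 0.1%).

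Counts were tested with edgeR 4.0.16 (quasi-likelihood, robust, TMM, genes with at least 10 reads in total) in R 4.3.3, with 1 model for the 6 MII libraries and 1 for the 12 laser capture libraries, and p-values were adjusted by Benjamini-Hochberg over all genes tested. A gene was called at an adjusted p under 0.05 and a fold of at least 2. DESeq2 1.42.0, limma 3.58.1 and other filters, scalings and subsets were alternatives. Scripts were tested on simulated data. Depth limits a count of 0 to 3 reads, or 0.103 to 0.198 CPM after laser capture and 0.301 to 0.409 CPM in MII libraries, for counting error only.

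The 10 genes and all lists were chosen with earlier results of these data known. All 10 were named in every comparison, and of the pathway lists the genes called or else the 2 with the lowest p per list. *Mastl* was named after its values were seen. Replicate numbers were shared between groups, but the deviations of same-numbered libraries correlated at -0.041 to 0.103, so they were not treated as pairs. Sequences came from RefSeq (GRCm38.p6) and GENCODE M21.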

Additional observations from a re-analysis of the deposited data

How the results depend on the processing

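None of the 10 maturation genes was called in any comparison under any alternative run, apart from the 3 called in MII oocytes without *in vivo* library 1 (range over left-out replicates 0 to 3). The number of all genes called was less stable. In MII oocytes it was 60, against 263 with no filter, 351 with DESeq2 and 0 with all 18 libraries in one model (11 to 378 over left-out replicates). In primordial oocytes it was 5, against 774 with DESeq2, 9 with the groups compared alone, 1 with the replicate block and 0 with no filter, filterByExpr, limma at either pseudocount or all 18 libraries (0 to 3 over left-out replicates). In primary oocytes it was 0, against 1 with DESeq2 size factors, 227 with DESeq2 and 5 with the groups compared alone (0 to 1). For the difference between these effects it was 16, against 550 with DESeq2, 1 with no filter and 0 with filterByExpr, limma, all 18 libraries or the replicate block (0 to 20). Between stages *in vivo* it was 8, against 532 with DESeq2, 3 with the groups compared alone and 0 with no filter, filterByExpr, limma, all 18 libraries or the replicate block (0 to 11), and between stages *in vitro* 0, against 413 with DESeq2. The cause was not tested. With the replicate number as a block no call of the 10 genes changed, and the log2 fold change of *Cdc25b* between stages *in vitro* was 7.48 and that of *Cdc20* 4.10.

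The sign of the log2 fold change in MII oocytes turned for *Cdc25b* with library size alone (-0.095) and for *Ccnb2* with all 18 libraries (0.050) and with the replicate block (0.00015). Over left-out replicates the value ran from -0.17 to 0.17 for *Ccnb2*, -0.72 to 0.0093 for *Ccnb3*, -0.39 to 0.77 for *Cdc25b*, -0.18 to 0.96 for *Wee2* and -0.085 to 0.44 for *Plk1*, and kept its sign for the other 5, from 0.37 to 1.48 for *Ccnb1*, 0.11 to 1.33 for *Cdc20*, 0.0061 to 1.23 for *Fbxo43*, 0.50 to 1.14 for *Mos* and -1.53 to -0.39 for *Cdk1*. Of 406 further values for these genes in laser capture oocytes 32 changed sign and 0 were called, and of 306 values with a replicate left out 44 changed sign and 0 were called. Depth was not varied.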
